A study of Homo sapiens with 5 samples.

Results

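The genes described here encode the structural proteins of the cytosolic ribosome. They were chosen by symbol: RPL or RPS, a number and at most one of the letters A, X or L, together with RPLP0, RPLP1, RPLP2 and RPSA, with RPS27L and pseudogenes left out. This gave 80 of the 26485 genes in the count table, 31 of the small (40S) subunit and 49 of the large (60S) subunit. Poly-A RNA was sequenced from RPE1, an immortalized human line derived from retinal pigment epithelium, with the genotype given as WT. All cells were of this 1 line and were sampled at 18 h. DMSO, the solvent of the drug, made up 2 libraries, doxorubicin at 0.2 µM to 2 and doxorubicin at 0.34 µM to 1. The sample titles and treatment fields give these doses, whereas the text of the treatment protocol gives far larger values, and the titles were followed. The study calls the libraries of a group biological replicates, and the sample titles mark only the second library of a group, as rep2. The unmarked libraries are called replicate 1 here. Whether cultures were grown and treated apart is not said. The p-values measure the spread between these libraries.

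A eukaryotic ribosome holds 1 copy of nearly every ribosomal protein, and dividing cells spend a large share of their transcription on these proteins. Their mRNAs start with a C followed by a run of pyrimidines, the 5′ terminal oligopyrimidine (TOP) tract, through which mTORC1 and LARP1 govern their translation and stability. Ribosomal proteins made in excess of rRNA are degraded, except that RPL5 and RPL11, bound to 5S rRNA, can bind MDM2, the ubiquitin ligase of p53. Doxorubicin intercalates in DNA and traps topoisomerase II, and DNA damage of this kind activates p53.

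The start sites of the genes below are shown because the TOP tract is common among ribosomal protein mRNAs, and because the results return to these genes. All members shown have the tract at the annotated start, while RPL10 and RPS26, also described below, do not. Each line gives 60 bases of RefSeq sequence (GRCh38.p14), 5′ to 3′, with 40 bases before the annotated start and 20 from it on, so that base 41 is the start. Capitals mark every run of a C followed by at least 4 C or T.
RPS19: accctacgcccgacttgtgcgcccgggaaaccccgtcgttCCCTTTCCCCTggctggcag
RPLP1: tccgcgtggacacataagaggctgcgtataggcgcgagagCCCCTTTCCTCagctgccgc
RPS12: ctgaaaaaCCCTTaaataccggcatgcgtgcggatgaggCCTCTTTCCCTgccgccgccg
RPL26: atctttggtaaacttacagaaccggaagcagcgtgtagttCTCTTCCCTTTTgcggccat
RPL28: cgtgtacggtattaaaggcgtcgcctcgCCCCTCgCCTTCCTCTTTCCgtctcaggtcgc
RPS27: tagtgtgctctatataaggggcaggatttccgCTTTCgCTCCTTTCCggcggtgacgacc
RPS27L: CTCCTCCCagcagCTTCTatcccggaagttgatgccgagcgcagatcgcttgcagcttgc
The windows lie at chr19:41860215-41860274 (plus strand) for RPS19, chr15:69452778-69452837 (plus strand) for RPLP1, chr6:132814529-132814588 (plus strand) for RPS12, chr17:8383174-8383233 (minus strand) for RPL26 and chr19:55385892-55385951 (plus strand) for RPL28. Those of the paralogue pair lie at chr1:153990722-153990781 (plus strand) for RPS27 and chr15:63157458-63157517 (minus strand) for RPS27L. RPS27L, a paralogue outside the rule, has such runs only upstream, and none begins at its annotated start.

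A promoter sequence was matched for 63 of the 80 genes, taking the most upstream RefSeq start of each. A C at the start followed by at least 4 pyrimidines was found in 42 of the 63 (66.7%), against 4.04% of all 27305 promoters. In the 250 bases before and 50 after the start, CCGGAA, the core bound by ETS factors such as GABP, was found on either strand in 54.0% of the members and in 17.6% of all promoters. CTCTTTC, a pyrimidine initiator, was found in 23.8% and 7.68%. The letters TCTCGCGA were found in 17.5% and 1.19%, and AANATGGCG, a YY1 motif, in 12.7% and 3.34%. GGGCGG, the GC box bound by SP1, was found in 55.6% and 44.5%, TATAAA in 9.52% and 12.0%, and CACGTG, an E-box, in 4.76% and 7.41%. The motifs were searched separately and their overlaps were not removed. These are matches of letters and not sites of binding. Of the genes tested below, the 42 with the tract at the start had log2 fold changes (doxorubicin over DMSO) with a median at 0.23 (range -0.57 to 1.15), and the 20 without it a median at 0.16 (-0.52 to 0.64).

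The libraries held between 23773061 and 36725345 counts. CDKN1A and MDM2, both targets of p53, rose with log2 fold changes of 3.39 and 2.19 (for CDKN1A edgeR gave 3.28 and an adjusted p of 0.0132 without DMSO replicate 2), and over all genes 571 of 14187 tested passed (183 higher and 388 lower, edgeR adjusted p under 0.01). Of 13 markers of retinal pigment epithelium, 11 or 12 had counts in each library, with a summed level of 639 to 784 CPM (counts scaled to library size, TMM-normalized) in DMSO and 1051 to 1249 CPM in doxorubicin. KRT8, KRT18, MITF and OTX2 carried this sum, and KRT8 and KRT18 most of it, with 369 and 327 CPM in DMSO replicate 1. RPE65, RLBP1, LRAT, TYR, TYRP1 and TTR, of the visual cycle, pigment and secretion of the mature tissue, were too low to be tested. BEST1, PMEL and SERPINF1 were tested, with means of 0.770, 0.231 and 0.778 CPM in DMSO and 2.83, 1.15 and 0.379 CPM in doxorubicin. The 6 markers of blood, endothelial, other epithelial and stromal cells summed to 2.36 to 3.01 CPM in DMSO and 2.86 to 5.94 CPM in doxorubicin, with KRT14 at 0 in all libraries. PECAM1 and EPCAM were also too low to be tested. PTPRC had 0.191 and 0.274 CPM in DMSO and 0.966, 2.20 and 1.98 CPM in doxorubicin. CDH5 had 2.19 and 2.87 CPM in the rep2 libraries and at most 0.155 CPM elsewhere. DCN had 0.313 and 0.374 CPM in the rep2 libraries and 1.43 to 1.94 CPM elsewhere. The part of either list in the results below was not tested.

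Ribosomal protein mRNAs took between 2.998% and 4.13% of all counts in a library. The 80 genes held 2.998% and 3.65% of the counts in DMSO replicates 1 and 2, 3.53% and 4.13% in the 0.2 µM replicates and 3.59% in the 0.34 µM library. The groups overlapped, since DMSO replicate 2 lay above both the first 0.2 µM library and the 0.34 µM library. The mean share was 3.32% ± 0.458 (SD, n = 2) in DMSO and 3.75% ± 0.331 (SD, n = 3) in doxorubicin. The difference of 0.431 percentage points compares with a pooled SD of 0.378 and came to 0.107 without DMSO replicate 1. The 40S genes held 37.6% and 37.3% of the members' counts in DMSO and 37.0%, 36.8% and 37.0% in doxorubicin, so the balance between the subunits moved by less than 1 percentage point. In bulk RNA a smaller number of cells making an mRNA and less of it per cell cannot be told apart. Rows of 31 ribosomal pseudogenes added a further 1.21% to 1.57% of the members' counts.

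Over the members tested, DMSO replicate 1 had the lowest median, with 334 CPM, and the second 0.2 µM library the highest, with 432 CPM. DMSO replicate 2, the first 0.2 µM library and the 0.34 µM library had medians of 374, 384 and 390 CPM. DMSO replicate 1 was the lowest of the 5 libraries in 49 of 78 members tested (62.8%, against 25.8% of all genes tested) and the highest in 9 (11.5%, against 24.5%). RPS19 had its lowest value in DMSO replicate 1 and RPL26 and RPL28 their highest, so the same library held extremes in both directions. Values without DMSO replicate 1 are therefore given beside the members' own below.

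**Figure D1:**
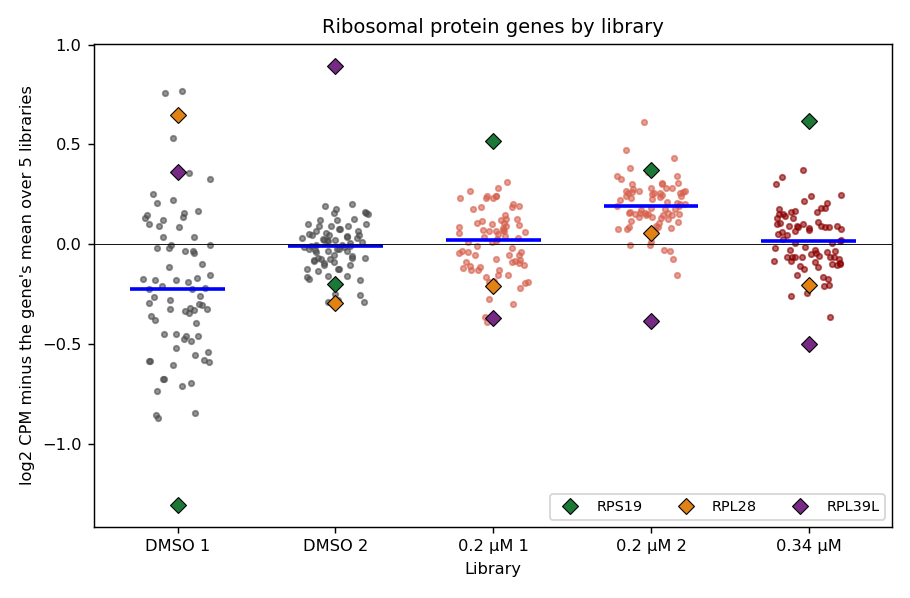
Level of each of the 78 tested ribosomal protein genes in each library, as log2 CPM minus the gene's own mean over the 5 libraries (y axis, log2), with libraries on the x axis. Dots are genes, blue bars are medians over all 78 genes and diamonds mark RPS19, RPL28 and RPL39L. The dots of DMSO replicate 1 are spread widest, and RPL39L is the gene that lies above its mean in both DMSO libraries and below it in all 3 doxorubicin libraries by the widest gap.

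The first comparison asked how ribosomal protein mRNAs stood after doxorubicin, with 3 doxorubicin libraries joined against 2 DMSO libraries. None of the 78 genes tested passed an edgeR adjusted p of 0.01, against 4.02% of all genes tested. RPL39L passed 0.05 (13.6% of all genes did), and 10 members, or 12.8%, had an unadjusted p under 0.05 (30.8% of all genes). DESeq2 called RPS19 higher and RPL39L lower at 0.01 (2 of 78, or 2.56%, against 14.6% of all genes). RPL3L and RPL10L, paralogues restricted to muscle and to testis, had 0 counts in all libraries, which allows up to 3 counts or 0.0817 to 0.126 CPM in a library, for counting error only.

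Small positive values predominated. The log2 fold change, doxorubicin over DMSO, was above 0 in 60 of 78 members (76.9%, against 51.1% of all genes tested), with a median of 0.17 against 0.013 over all genes. All 3 doxorubicin libraries lay above both DMSO libraries in 31 members (39.7%, against 24.3%) and below both in 2 (2.56%, against 23.4%), which were RPL39L and RPL35. RPL35 is outside the rule for named genes and was named after its values were seen. The members were less spread than other genes, with an SD of the log2 fold change of 0.32 against 0.92 over all genes tested, many of which have far lower counts. Without DMSO replicate 1 the median was 0.083 (all genes 0.044) and 4 members had an unadjusted p under 0.05 (31.0% of all genes), namely RPS19, RPL3, RPL34 and RPL39L, of which RPL34 is outside the rule for named genes. Without DMSO replicate 2 the median was 0.26 and 40 members had an unadjusted p under 0.05 (51.3%, against 32.0%). Without the second 0.2 µM library the median was 0.13 (all genes 0.0052), and 46 of 78 members were above 0, the fewest of any alternative. Without DMSO replicate 1, 59 of 78 were above 0. The doxorubicin libraries all exceeded DMSO replicate 1 in 50 members (64.1%, against 37.2% of all genes tested) and DMSO replicate 2 in 38 (48.7%, against 38.4%).

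**Figure D2:**
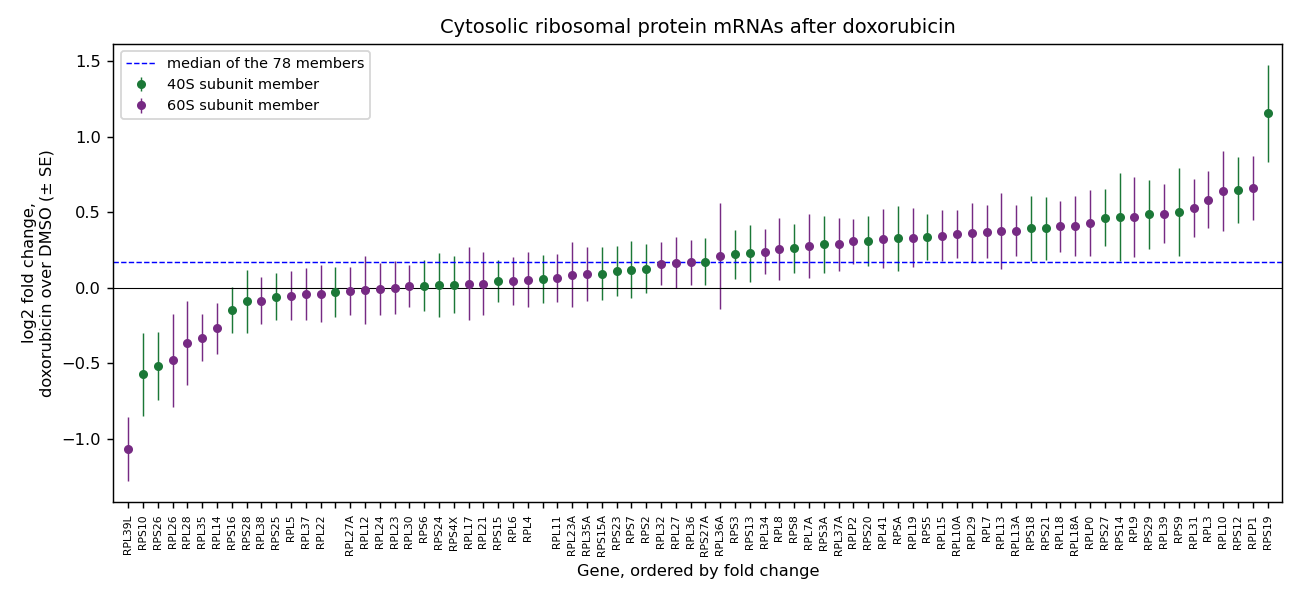
Log2 fold change of each of the 78 tested genes, 3 doxorubicin libraries over 2 DMSO libraries (y axis), in order of size (x axis), with the SE of the edgeR fit as bars, 40S genes in green and 60S genes in purple. Both subunits are spread along the whole order around the median of 0.17, between RPL39L at -1.07 and RPS19 at 1.15.

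Among the 31 genes of the small subunit, the median log2 fold change was 0.17, and all doxorubicin libraries exceeded both DMSO libraries in 12. Of all members 39.7% did so, and of all genes tested 24.3%. RPS19, a protein of the 40S head needed for maturation of 18S rRNA and the gene most often mutated in Diamond-Blackfan anaemia, had 131 and 283 CPM in DMSO, 465 and 420 CPM at 0.2 µM and 498 CPM at 0.34 µM. The groups did not overlap, and the DMSO libraries differed from each other by a log2 value of 1.10, which was the widest DMSO gap upwards of any member. Its log2 fold change was 1.15 (SE 0.32, edgeR adjusted p = 0.0606). It was 0.70 without DMSO replicate 1 (adjusted p = 0.0652) and 1.79 without DMSO replicate 2 (adjusted p = 0.0146), and DESeq2 gave an adjusted p of 0.003707 with all libraries.

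RPS12, near the beak of the small subunit, had 213 and 335 CPM in DMSO, 426 and 411 CPM at 0.2 µM and 447 CPM at 0.34 µM. Every doxorubicin library was above both DMSO libraries, of which replicate 1 was the lower (log2 fold change 0.64, SE 0.22, edgeR adjusted p = 0.0991, and 0.35 without DMSO replicate 1). RPS9, a protein that binds 18S rRNA early in assembly, had 139 and 284 CPM in DMSO and 309, 288 and 301 CPM in doxorubicin. Here the doxorubicin libraries sat just above DMSO replicate 2, and the log2 fold change of 0.50 (SE 0.29) became 0.070 without DMSO replicate 1. RPSA, the laminin receptor protein of the 40S subunit, had 563 and 859 CPM in DMSO and 854, 956 and 867 CPM in doxorubicin, so that its groups overlapped (log2 fold change 0.33, SE 0.21, and 0.047 without DMSO replicate 1).

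RPS10 and RPS26, 2 more proteins mutated in Diamond-Blackfan anaemia, had the lowest fold changes of the small subunit. RPS10 had 64.7 and 34.1 CPM in DMSO and 29.6, 37.1 and 32.9 CPM in doxorubicin. Only DMSO replicate 1 was apart from the rest, and the log2 fold change of -0.57 (SE 0.28, edgeR adjusted p = 0.215) came to -0.047 without it. RPS26, which contacts mRNA at the exit channel, had 262 and 193 CPM in DMSO and 138, 199 and 141 CPM in doxorubicin, where the second 0.2 µM library reached into the DMSO range (log2 fold change -0.52, SE 0.22, adjusted p = 0.175 by edgeR, and -0.29 without DMSO replicate 1). RPS6, the substrate of S6 kinase below mTORC1, had 797 and 828 CPM in DMSO and 768, 931 and 761 CPM in doxorubicin. Its groups overlapped and its log2 fold change was 0.014 (SE 0.17, and -0.022 without DMSO replicate 1).

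RPS4X, the X-linked copy of S4, had a log2 fold change of 0.022 (SE 0.19, and 0.18 without DMSO replicate 1), and RPS24, also mutated in the anaemia, had 0.017 (SE 0.21, and 0.27 without DMSO replicate 1). RPS2, a protein of the mRNA entry side, had 1658 and 1894 CPM in DMSO and 1917, 2068 and 1832 CPM in doxorubicin. The log2 fold change of RPS2 was 0.13 (SE 0.16, and 0.025 without DMSO replicate 1), and the groups of all 3 genes overlapped. RPS27, a zinc finger protein of the 40S subunit, did not overlap, with 219 and 226 CPM in DMSO and 261, 372 and 287 CPM in doxorubicin (log2 fold change 0.47, SE 0.19, edgeR adjusted p = 0.156, and 0.43 without DMSO replicate 1). Its DMSO libraries differed by a log2 value of 0.045, so this was a member whose value did not turn on DMSO replicate 1.

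The 47 tested genes of the large subunit also had a median log2 fold change of 0.17. The doxorubicin libraries exceeded both DMSO libraries in 19 of these (24.3% of all genes tested). The 3 proteins of the acidic stalk, which recruits translation factors, were all in this set. RPLP1 had 383 and 568 CPM in DMSO, 770 and 681 CPM at 0.2 µM and 803 CPM at 0.34 µM. DMSO replicate 1 was the lowest and the groups did not overlap (log2 fold change 0.66, SE 0.21, edgeR adjusted p = 0.0884, and 0.40 without DMSO replicate 1). RPLP0, the base of the stalk and a common reference gene in PCR, had 1032 and 1589 CPM in DMSO and 1719, 1840 and 1736 CPM in doxorubicin. Its doxorubicin libraries were close together and above DMSO replicate 2 by a small margin (log2 fold change 0.43, SE 0.22, and 0.14 without DMSO replicate 1). RPLP2 had 188 and 209 CPM in DMSO and 257, 225 and 256 CPM in doxorubicin, a log2 fold change of 0.31 (SE 0.15) with no overlap, and of 0.23 without DMSO replicate 1.

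RPL10, the X-linked protein that joins the 60S subunit last and is needed for its activation, had 389.7 and 709.8 CPM in DMSO and 832, 905 and 834 CPM in doxorubicin. The groups did not overlap, DMSO replicate 1 was by far the lowest, and the log2 fold change of 0.64 (SE 0.26, edgeR adjusted p = 0.156) became 0.26 without it. RPL3, which lies close to the peptidyl transferase centre, had 733 and 1001 CPM in DMSO and 1301, 1354 and 1241 CPM in doxorubicin. These groups did not overlap either (log2 fold change 0.58, SE 0.19, adjusted p = 0.0894 by edgeR, and 0.37 without DMSO replicate 1). RPL26 and RPL28 went the other way. RPL26, a protein near the tunnel exit that also binds p53 mRNA, had 662 and 323 CPM in DMSO and 318, 412 and 327 CPM in doxorubicin, and RPL28 had 878 and 458 CPM in DMSO and 485, 583 and 486 CPM in doxorubicin. Both were high in DMSO replicate 1 only, and their log2 fold changes of -0.48 (SE 0.31) and -0.37 (SE 0.28) turned to 0.12 and 0.17 without it.

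Of the proteins that link the ribosome to p53, RPL5, RPL11, RPL23 and RPS7 did not stand out. RPL26, described above, was among the lowest members (log2 fold change -0.48, and 0.12 without DMSO replicate 1). RPL5 and RPL11, the partners of 5S rRNA, had log2 fold changes of -0.052 (SE 0.16) and 0.065 (SE 0.16). RPL5 had 624 and 539 CPM in DMSO and 538, 614 and 531 CPM in doxorubicin, and RPL11 had 403 and 334 CPM in DMSO and 368, 407 and 382 CPM in doxorubicin, with overlap in both. RPL23 and RPS7, which also bind MDM2, had 0.00029 (SE 0.18) and 0.12 (SE 0.19). Without DMSO replicate 1 these log2 fold changes were 0.049 for RPL5, 0.20 for RPL11, 0.16 for RPL23 and -0.11 for RPS7. RPS27A, made as a fusion with ubiquitin, had 221 and 273 CPM in DMSO and 288, 267 and 280 CPM in doxorubicin (log2 fold change 0.17, SE 0.16, and 0.021 without DMSO replicate 1). The list of 14 genes around this surveillance, these proteins among them, had a median log2 fold change of -0.033. MDM2 was the gene of it that edgeR called, against 4.02% of all genes tested (log2 fold change 2.19, SE 0.23, edgeR adjusted p = 0.002455). MDM2 had 128 and 123 CPM in DMSO and 482, 715 and 517 CPM in doxorubicin, with a wide gap between the groups. By edgeR it missed the threshold when either DMSO library was left out (adjusted p = 0.0169 for the first and 0.0227 for the second).

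Paralogues with their own genes were looked at one by one. RPL39L, the autosomal copy of RPL39 known from testis and from tumour lines, had 455 and 641 counts in DMSO and 271, 249 and 347 counts in doxorubicin, or 17.4 and 25.1 CPM against 10.5, 10.3 and 9.56 CPM. All doxorubicin libraries were below both DMSO libraries and within 1 CPM of each other. The log2 fold change was -1.07 (SE 0.21, edgeR adjusted p = 0.0221, DESeq2 adjusted p = 0.000335), and -1.32 without DMSO replicate 1 (edgeR adjusted p = 0.0168). It was -0.79 without DMSO replicate 2 (edgeR adjusted p = 0.0546), and over all alternatives its adjusted p reached 0.180, with the 0.34 µM library alone. RPL39, its X-linked counterpart and a small protein of the exit tunnel, had 124 and 181 CPM in DMSO and 209, 223 and 210 CPM in doxorubicin, with no overlap in the opposite direction (log2 fold change 0.49, SE 0.19, edgeR adjusted p = 0.141, and 0.23 without DMSO replicate 1). How reads that fit both copies were counted is not stated, so either value may hold reads of the other gene.

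RPS27L, a paralogue of RPS27 outside the rule and a target of p53, rose. It had 80.6 and 92.3 CPM in DMSO and 227, 322 and 243 CPM in doxorubicin, where every doxorubicin library was above 2 times either DMSO value. The log2 fold change was 1.61 (SE 0.21, edgeR adjusted p = 0.005436), and it passed 0.01 in none of the fits that left out 1 library (1.51 and adjusted p = 0.0280 without DMSO replicate 1). RPL22L1, the paralogue of RPL22, had 45.7 and 66.0 CPM in DMSO and 32.2, 44.5 and 22.2 CPM in doxorubicin. All doxorubicin values were lower, the second 0.2 µM library by a narrow margin (log2 fold change -0.76, SE 0.31, edgeR adjusted p = 0.150, and -1.01 without DMSO replicate 1). RPL22 had 339.5 and 308.5 CPM in DMSO and 278, 378 and 290.3 CPM in doxorubicin, with a log2 fold change of -0.038 (SE 0.19, and 0.023 without DMSO replicate 1). Of the 6 paralogues outside the rule, edgeR and DESeq2 called RPS27L (4.02% and 14.6% of all genes tested passed), and the median was 0.065. The groups overlapped in the other 4, which were RPL26L1 (-0.013, SE 0.17), RPL7L1 (0.14, SE 0.25), RPL36AL (-0.45, SE 0.23) and RSL24D1 (0.16, SE 0.21), named after their values were seen. Among ribosomal proteins with symbols outside the rule, FAU, a fusion that carries S30, had a log2 fold change of 0.31 (SE 0.16, and 0.15 without DMSO replicate 1). RACK1, a scaffold on the 40S head, had 0.19 (SE 0.20), which turned to -0.056 without DMSO replicate 1, and neither was called.

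**Figure D3:**
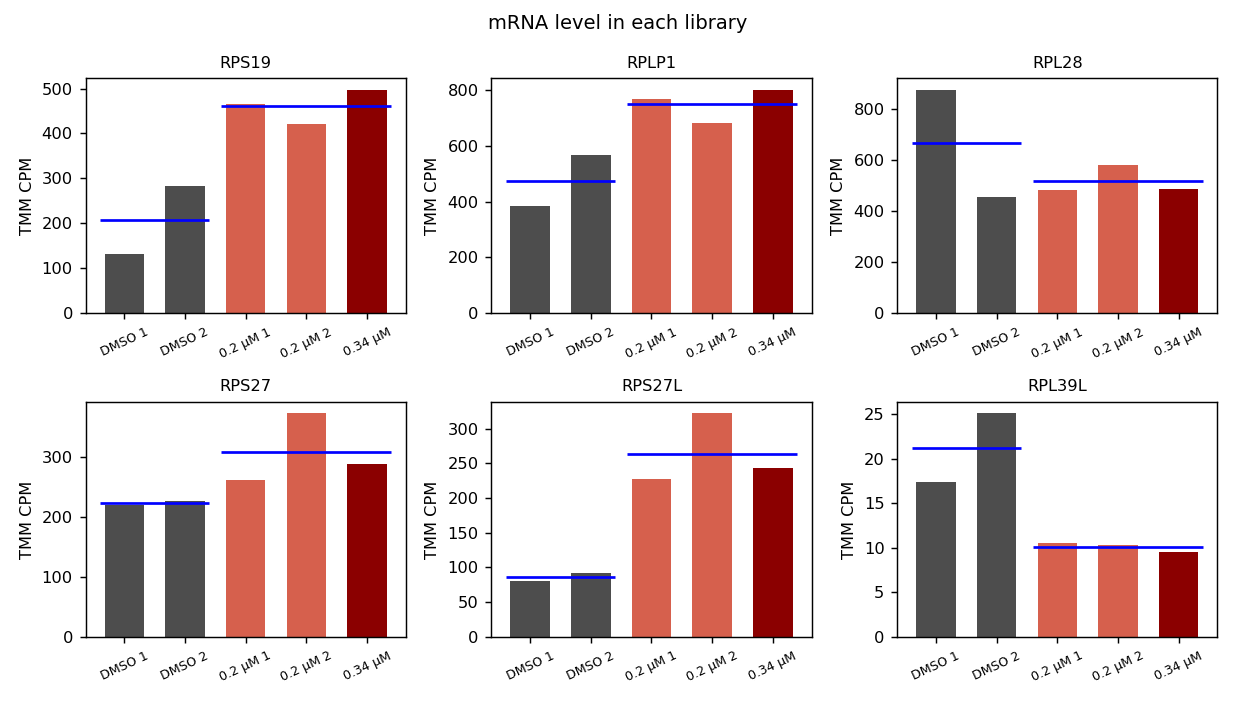
TMM-normalized CPM (y axes, linear, from 0) of 6 genes in each library (x axes), with DMSO in grey, 0.2 µM doxorubicin in light red, 0.34 µM in dark red and group means as blue lines. RPS27L has the highest ratio of doxorubicin to DMSO means among the 6 and RPL39L is the one with all doxorubicin libraries lowest, while for RPS19, RPLP1 and RPL28 the 2 DMSO libraries differ widely.

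Levels of different genes were compared per kilobase of coding sequence. Of the members tested, the middle 50% lay between 643 and 1023 CPM per kb, with a median of 828. The highest was RPL41, a peptide at the subunit interface, whose coding sequence of 75 bases makes its value of 7974 CPM per kb an overstatement, since reads from its longer UTRs are divided by the coding length. RPS2 and RPS24 followed with 2132 and 1996 CPM per kb. RPL36A, RPL17 and RPS10 were the lowest, with 11.0, 59.0 and 80.2 CPM per kb. These were the members that overlap an annotated read-through gene named after them (RPL36A-HNRNPH2, RPL17-C18orf32 and RPS10-NUDT3), whose own rows held 0 to 13 counts in a library. Reads that fit 2 overlapping genes may be left out in counting, and the rule used for them is not stated, so these 3 levels are uncertain. RPL39L had 95.2 CPM per kb against 1239 CPM per kb for RPL39. Of the 80 genes, 77 have pseudogenes named after them in RefSeq, with a median of 16 and up to 137 for RPL21, 29 hold snoRNA genes in their introns or ends and 12 lie on chromosome 19.

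**Figure D4:**
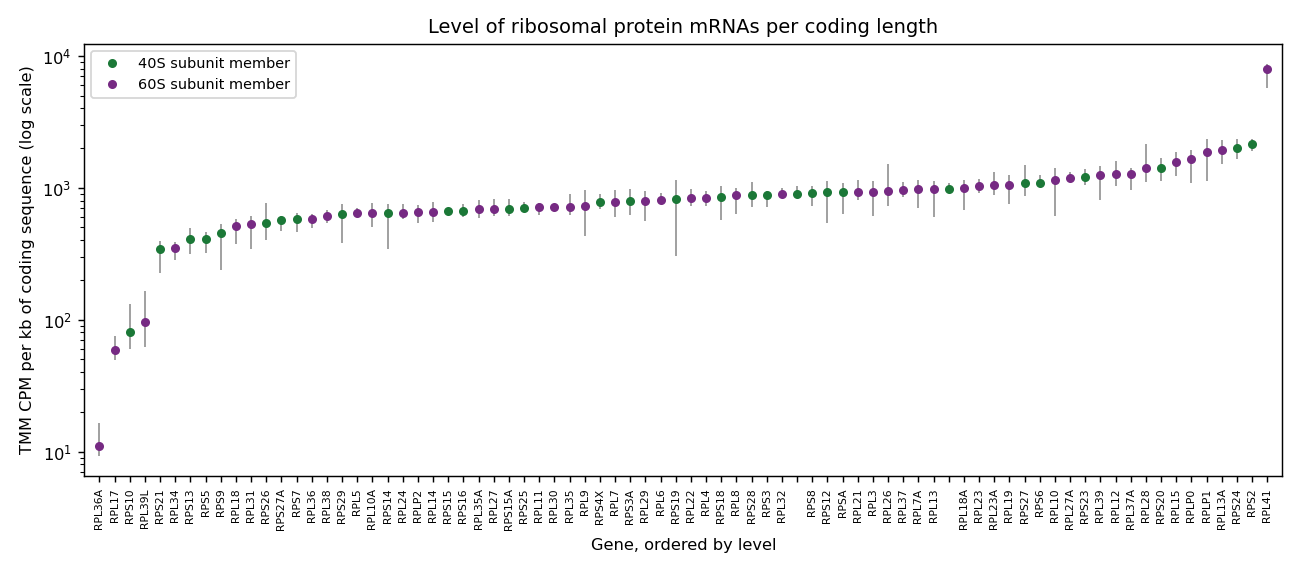
Level of the 78 tested genes per kilobase of coding sequence (y axis, TMM CPM per kb, log scale), in order of size (x axis). Points are means over the 5 libraries, 40S genes in green and 60S genes in purple, and grey lines run from the lowest to the highest library. The median is 828 CPM per kb, with RPL36A, RPL17, RPS10 and RPL39L the lowest and RPL41 the highest.

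The 2 replicate pairs were then compared. In DMSO, replicate 2 minus replicate 1 had a median log2 difference of 0.24 and an SD of 0.44 over the members, and 55 of 78 were higher in replicate 2. The range ran from -1.04 in RPL26 to 1.10 in RPS19, with RPS9 at 1.03 as the next widest. RPL30 and RPL32 were among the members with the narrowest DMSO differences, of -0.0026 and 0.012. In the 0.2 µM pair the median was 0.19 and the SD 0.20, and 63 of 78 were higher in replicate 2. Over all genes tested the medians of these differences were 0.0067 and 0.021. Across the 78 members, which share their libraries, the DMSO and the 0.2 µM differences had a Pearson correlation of -0.43, against 0.53 across all 14187 genes. The 0.2 µM difference went with the GC content of the transcript (Pearson correlation -0.40 over the members and -0.30 over the 12794 genes with a value), and the DMSO difference less so (0.15 and 0.067). The part of GC content in the results was not tested.

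Taken by replicate number, 0.2 µM minus DMSO had a median of 0.23 and an SD of 0.54 for the libraries numbered 1, and a median of 0.21 and an SD of 0.24 for those numbered 2. The 0.2 µM library was above the DMSO library of its number in both cases for 48 of 78 members (61.5%, against 35.2% of all genes tested) and below in both for 2 (2.56%, against 33.1%), which were again RPL39L and RPL35. The size of the difference in one pair said little about that in the other, with a Pearson correlation of 0.16 over the members and 0.68 over all genes tested. RPS19 had 1.82 and 0.57, RPLP1 1.01 and 0.26, and RPL39L -0.72 and -1.27. RPL26 had -1.06 and 0.35 and RPL28 -0.86 and 0.35, so their sign turned between the pairs.

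**Figure D5:**
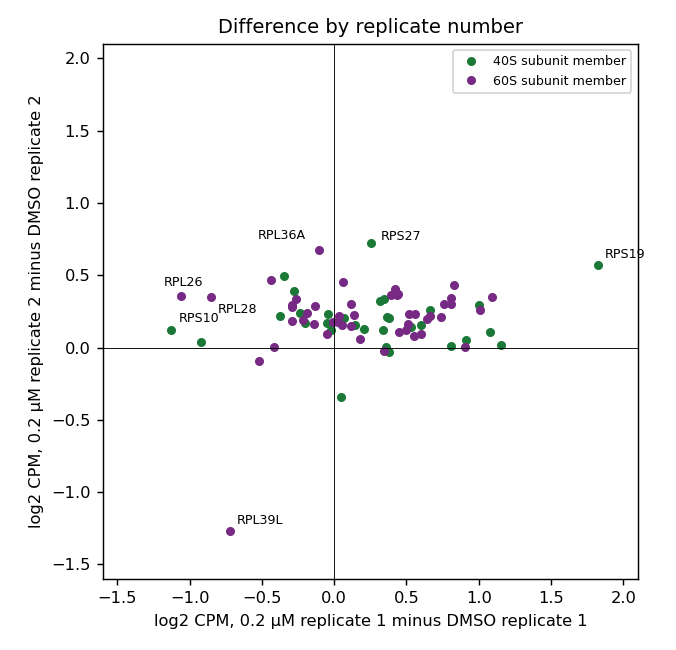
Log2 CPM difference of each of the 78 tested genes between 0.2 µM doxorubicin and DMSO, for the libraries numbered 1 (x axis) and those numbered 2 (y axis), with 40S genes in green and 60S genes in purple. The cloud is wide along x and narrow along y, and RPL39L is the gene farthest below 0 on the y axis.

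The last comparison set 0.34 µM against 0.2 µM doxorubicin, with the lone 0.34 µM library taken to vary like the others. No member was called (edgeR adjusted p under 0.01, 0% of all genes tested), and none had an unadjusted p under 0.05, as 22 of all genes had. DESeq2 called no member in this contrast either. The median log2 fold change over the members was -0.10 (-0.017 over all genes tested), and 65 of 78 were lower at 0.34 µM. Without the second 0.2 µM library the members' median was 0.016. Set against the first 0.2 µM library alone, the 0.34 µM library differed by a median of 0.013. For 73 of 78 members the 2 libraries lay within 0.1 of each other on the log2 scale. The median size of this difference was 0.031 over the members and 0.11 over all genes tested, many of which have far lower counts. RPS19 had 465 CPM in that 0.2 µM library and 498 CPM at 0.34 µM, and RPL39 had 209 and 210 CPM. The second 0.2 µM library was the higher of its pair in 63 of 78 members.

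Genes listed as TOP mRNAs from general knowledge, or that act on ribosomal proteins, were taken as lists. Of 23 such TOP mRNAs that encode other proteins of translation and growth, 16 were matched to a promoter. The tract began at the annotated start in 11 of the 16. Of the 23, edgeR called none, against 4.02% of all genes tested. DESeq2 called 2 higher, EEF2 and EIF3F (14.6% of all genes passed in either direction), and the median log2 fold change was 0.053, with 13 above 0 and 10 below. EEF2, the translocase of elongation, had 2043 and 2335 CPM in DMSO and 3284, 3435 and 3400 CPM in doxorubicin, which did not overlap (log2 fold change 0.62, SE 0.16, edgeR adjusted p = 0.0505). EIF3F, a subunit of initiation factor 3, had 0.58 (SE 0.15, adjusted p = 0.0530 by edgeR). NPM1 and HNRNPA1, also TOP mRNAs, lay on the other side with -0.55 (SE 0.23) and -0.53 (SE 0.17). EEF2, EIF3F, NPM1 and HNRNPA1, and RHEB below, were named after their values were seen. Of 16 genes of mTORC1 and its TOP mRNA effectors, the median was -0.20 and edgeR called EIF4EBP1 lower (4.02% of all genes tested passed). DESeq2 called EIF4EBP1 and RHEB lower (14.6% of all genes). RHEB, the activator of mTORC1, had 155 and 131 CPM in DMSO and 78.3, 86.7 and 74.7 CPM in doxorubicin, with no overlap (log2 fold change -0.84, SE 0.15, edgeR adjusted p = 0.0155). EIF4EBP1, the repressor of eIF4E, fell with 46.9 and 62.4 CPM in DMSO and 23.0, 21.4 and 17.0 CPM in doxorubicin (log2 fold change -1.42, SE 0.20, edgeR adjusted p = 0.007815), and passed 0.01 in none of the fits without 1 library.

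None of 10 chaperones of ribosomal proteins was called by edgeR or DESeq2 (4.02% and 14.6% of all genes tested), and their log2 fold changes had a median of -0.087. Of the 19 genes mutated in Diamond-Blackfan anaemia, edgeR called none and DESeq2 called RPS19, against the same shares of all genes. Their median log2 fold change was 0.091, against 0.23 for the other 59 members tested. This list held RPS19, the highest of all members, and RPS10, RPS26 and RPL26, which were among the lowest. The 4 X-linked members, RPS4X, RPL10, RPL36A and RPL39, had a median of 0.35. The groups overlapped in 2 of them, and doxorubicin lay above DMSO in 2 (24.3% of all genes tested).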

How the data were processed

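RNA-seq of poly-A RNA from 5 libraries of RPE1 cells was analysed from the counts of reads per gene deposited by the authors. Paired reads had been mapped by the authors with STAR and counted with featureCounts of Rsubread on hg38 with an iGenomes annotation. For versions, the strand setting and reads that fit several genes: not given in the sources used here. A table of the authors' own comparison (means, log2 fold changes, test statistics and p-values from DESeq2) was not used.

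The members and gene lists were chosen with earlier results of these data known. Counts were fitted in R 4.3.3 with edgeR 4.0.16 (TMM, filterByExpr with min.count 10 and min.total.count 15, quasi-likelihood test, Benjamini-Hochberg adjustment over the 14187 of 26485 genes that passed, threshold 0.01), the 3 doxorubicin libraries against the 2 DMSO libraries. Of the 80 members, 78 passed. The SE was taken as the size of the log2 fold change over the root of F. Differences between single libraries used log2 CPM with a prior count of 2. The dose contrast came from a fit of 3 conditions. DESeq2 1.42.0 and limma 3.58.1 (voom), other scalings, no filter, a threshold of 0.05, each dose alone, the replicate number as a block and each library left out were alternatives. The steps were tested on simulated data. Pairs of replicates differed by far more than sampling noise (chi-square per degree of freedom 117 in DMSO and 75.3 at 0.2 µM), so all were counted. Library depth was 23773061 to 36725345 counts, and limits from a count of 0 cover counting error only.

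Coding lengths and GC content were taken from GENCODE canonical transcripts, and positions, pseudogene names and promoters from RefSeq. Named genes were members past the threshold, the 5 highest and 5 lowest log2 fold changes, the 3 highest and 3 lowest levels per kb, the 3 widest and 3 narrowest DMSO differences and genes fixed by role, with list genes past the threshold. Some genes named by this rule are not reported here and carry no name in the plots.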

Additional observations from a re-analysis of the deposited data

How the results depend on the processing

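Counts of members called moved from 0 with 3 alternatives. DESeq2 called 1 higher (RPS19) and 1 lower (RPL39L), and a threshold of 0.05 called 1 lower (RPL39L). The fit with the replicate number as a block, on DMSO and 0.2 µM only, called 1 higher (RPS19, log2 fold change 1.20, adjusted p = 0.003738) and none lower. The numbers are not known to pair cultures, and the deviations of same-numbered libraries had a correlation of 0.528 over all genes and -0.43 over the members. Over all genes tested, the 0.34 µM library differed from the first 0.2 µM library by a median log2 size of 0.11. The 0.2 µM libraries differed from each other by 0.29. The main fit took no account of the number. With voom, other scalings, no filter, each dose alone or any library left out, no member was called. Over all alternatives the median log2 fold change lay between 0.083 (without DMSO replicate 1) and 0.26 (without DMSO replicate 2), with 46 to 66 of 78 above 0. Without the filter the median of all genes was 0.15, so the members then stood near it. Of 608 values of single named genes, 546 kept their direction and side of the threshold. The others were 40 changes of direction, 18 calls lost and 4 calls gained. Only CDKN1A, MDM2, EIF4EBP1 and RPS27L were called in the main fit and so had a call to lose. For the other named genes, staying uncalled says little. The 0.2 µM libraries alone and the fit without the higher dose are the same fit, so its values were counted more than once.

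The sign turned by library size alone for RPL17 (-0.0059), RPL23 (-0.023), RPL30 (-0.019), RPS24 (-0.0025), RPS4X (-0.00083) and RPS6 (-0.014), with the 0.34 µM library alone for RPL17 (-0.17), RPL23 (-0.071), RPL30 (-0.016), RPL36A (-0.11), RPS24 (-0.078), RPS4X (-0.059) and RPS6 (-0.094), with 0.2 µM alone for RPL22 (0.021), with the block for RPL22 (0.0071), by upper quartile for RPL22 (0.0045), and for RPL23 with DESeq2 (-0.0058) and RLE (-0.0057). Leaving out 1 library gave -0.056 to 0.47 for RACK1 (GNB2L1), -0.082 to 0.20 for RPL11, -0.18 to 0.23 for RPL17, -0.19 to 0.049 for RPL22, -0.17 to 0.16 for RPL23, -0.93 to 0.12 for RPL26, -0.78 to 0.17 for RPL28, -0.030 to 0.043 for RPL30, -0.11 to 0.35 for RPL36A, -0.17 to 0.049 for RPL5, -0.22 to 0.27 for RPS24, -0.15 to 0.18 for RPS4X, -0.084 to 0.068 for RPS6 and -0.11 to 0.36 for RPS7. The causes were not tested. The median member had 354 CPM in DMSO, and each comparison rested on 2 DMSO libraries.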
